A study of Mus musculus with 13 samples.

Results

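Immature FL-cDC2s and immature FL-cDC1s, the CD83-negative conventional dendritic cells of both lineages in bone marrow cultured with FLT3 ligand (FL-BM culture), were compared gene by gene. The comparison used 4 of the 13 libraries of the series, 2 of each subset, and took them by their labels: the CD115- CX3CR1- CD83- cells of the cDC2 gate and the CD115- CX3CR1- CD83- cells of the cDC1 gate. Bone marrow came from wild-type C57BL/6 mice aged 8 to 14 weeks and was grown for 8 to 10 days with 10 μg/ml of FLT3L, so all 4 libraries shared strain, tissue and growth factor and were set apart by the sorting gate. The series also holds cDC2-gated non-DCs, the CD83-positive mature stage of both lineages and GM-CSF cultures. Of 24532 genes in the tables, 15118 had a read in at least 1 of the 4 libraries and 12420 were abundant enough to test.

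Conventional dendritic cells take up antigen and present it to T cells. The cDC1 lineage is known for dependence on IRF8 and BATF3, for sensing double-stranded RNA and dead cells, and for passing captured antigen to CD8+ T cells. The cDC2 lineage is known for the use of IRF4, for a wide set of C-type lectins and other innate receptors, and for priming CD4+ T cells. Cultures with FLT3L make both lineages side by side, which makes them a usual source of each for experiments.

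The gates themselves set several genes. Cells of the cDC1 gate were B220-negative, MHC class II-positive, CD24-positive or low and negative for CD172α, and cells of the cDC2 gate were CD172α-positive, CD24-low or negative and sorted from the fraction with high MHC class II. CD172α is the product of Sirpa, so the levels of Sirpa, Cd24a, Itgax, Ptprc, Cd83, Csf1r, Cx3cr1 and the MHC class II genes describe the sort and are no result of it. No source says that the libraries of a subset came from separate cultures or animals, and p-values therefore speak only of the spread from library to library, which could be technical. The immature FL-cDC2 libraries lie in a table with other cells of the cDC2 gate and the immature FL-cDC1 libraries in another table, so for this comparison subset and table cannot be told apart.

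Libraries held 51098324 and 55991362 reads for the immature FL-cDC2 gate against 71330242 and 66069478 for the cDC1 gate. The 100 most abundant genes took 24.0% and 23.5% of reads in cDC2s but 32.1% and 39.8% in cDC1s, and the MHC class II chaperone Cd74 led all 4 libraries. The spread between replicates (biological coefficient of variation) was 25.4% in the cDC2 pair and 38.6% in the cDC1 pair. The cDC1 libraries differed from each other by transcript length: in the shortest of 5 bins of the genes tested (64 to 1576 bases), the median gene was 0.74 higher on the log2 scale in replicate 2 than in replicate 1, and in the next to longest bin it was lower by a log2 difference of -0.49. The comparison of the subsets carried the same trend, with a median log2 fold change (cDC2 over cDC1) of -0.80 in the shortest and 0.67 in the longest bin. Without cDC1 replicate 2 these medians were -0.30 and 0.48, and without cDC1 replicate 1 they were -1.26 and 0.83. The part of library preparation in this trend was not tested.

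**Figure D1:**
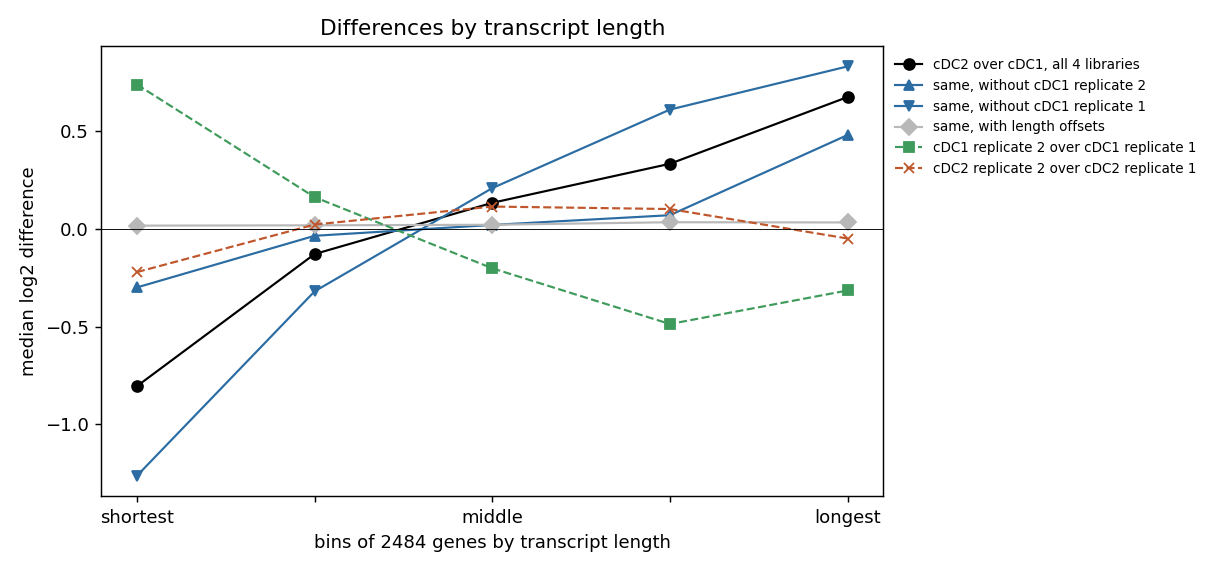
Median log2 difference (vertical axis) in 5 bins of 2484 genes by transcript length (horizontal axis), for the comparison of the subsets with all 4 libraries, without either cDC1 library and with length offsets (solid lines), and for replicate 2 over replicate 1 within each subset (dashed lines). The cDC2-over-cDC1 line runs from -0.80 to 0.67, while the cDC2 replicates stay between -0.22 and 0.11.

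By the quasi-likelihood test of edgeR, 1912 genes had a Benjamini-Hochberg adjusted p under 0.05, which is 15.4% of the genes tested. Of these, 1116 were higher in cDC2s (8.99%) and 796 in cDC1s (6.41%). All differed by at least 2.18-fold, the median called gene by 5.73-fold, and 781 by 8-fold or more (524 higher in cDC2s, 257 in cDC1s). Genes higher in cDC2s were often of low level: 249 of the 1116 had no read in either cDC1 library, with a median of 0.308 FPKM in cDC2s (fragments scaled by transcript length and sequencing depth), and 392 reached 10 FPKM. Of the 796 genes higher in cDC1s, 47 had no read in either cDC2 library and 512 reached 10 FPKM. The number of calls leaned on single libraries: it was 879 without cDC2 replicate 2, 1202 without cDC2 replicate 1 and 4479 without cDC1 replicate 1, and no called gene changed sign in any of these fits. The median log2 fold change over all genes was 0.07. Scaling by library size alone moved it to 0.49 and the share of calls that were higher in cDC2s from 58.4% to 80.2%, so directions below are relative to the median gene. In FPKM, the subsets did not overlap for 8342 genes (67.2%), so such a gap is common and is a description only.

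**Figure D2:**
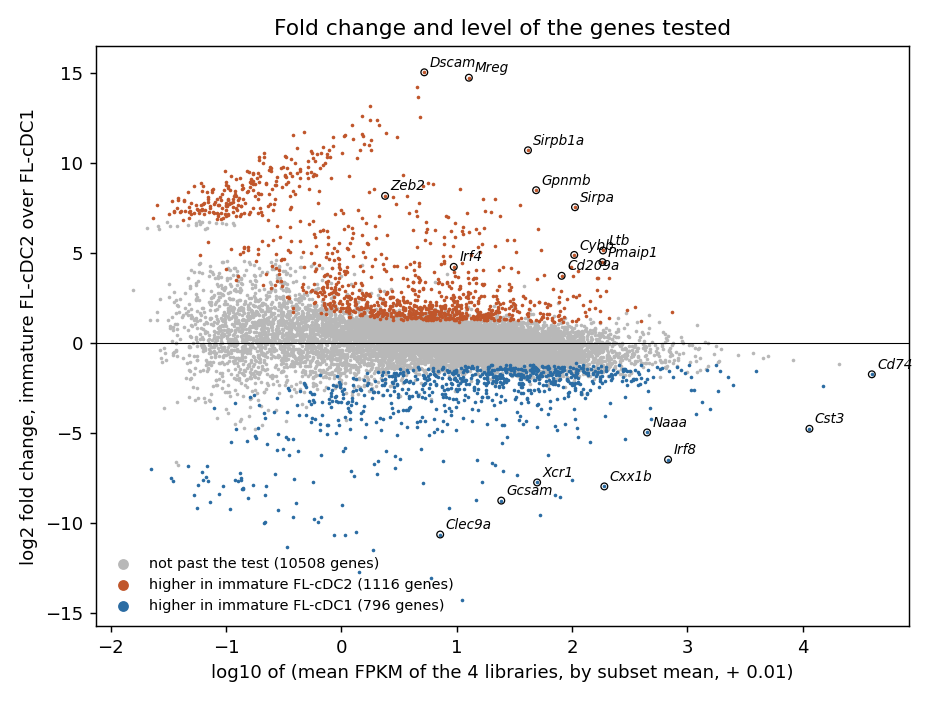
Log2 fold change of immature FL-cDC2s over FL-cDC1s (vertical axis) against the log10 of the mean FPKM (horizontal axis) for the 12420 genes tested, with the 1116 and 796 genes past the test in colour and 19 genes named. Sirpa, Ltb and Cybb lie high and to the right, and Irf8, Naaa and Cst3 low and to the right, so abundant genes differ in both directions.

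The 4 defining markers went with the labels. Xcr1, the receptor of the chemokine XCL1 (chromosome 9, 123852315 to 123862029), was at 112 and 86.5 FPKM in cDC1s and at 0.354 and 0.875 in cDC2s, a 215-fold difference (log2 -7.75 ± 0.60 SE, adjusted p = 0.000612). Clec9a, a lectin that binds actin exposed by dead cells (chromosome 6, 129408862 to 129424764), had 3282 and 3084 reads in cDC1s against 0 and 4 in cDC2s, or 14.2 and 14.5 FPKM against 0 and 0.0214. Cd209a, a C-type lectin of the DC-SIGN family (chromosome 8, 3743395 to 3748984), was at 146 and 162 FPKM in cDC2s and 9.81 and 7.54 in cDC1s (log2 3.72 ± 0.35 SE, adjusted p = 0.00111), and it missed the threshold only in the fit of all 13 libraries (adjusted p = 0.0737). All 3 separated the subsets without overlap.

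Among the genes of the sorting antibodies, Sirpa (chromosome 2, 129591042 to 129632228) stood at 219 and 204 FPKM in cDC2s against 1.09 and 0.598 in cDC1s. Cd24a went the other way, with 96.4 and 129 FPKM in cDC1s against 20.1 and 12.7 in cDC2s. Itgax, which encodes CD11c, was at 73.6 and 49.2 FPKM in cDC2s and 34.5 and 23.5 in cDC1s, and Cd83 at 164 and 271 against 220 and 156, and neither passed the test. The genes of the receptors by which non-DCs were excluded were higher in cDC2s: Cx3cr1 at 11 and 10.7 FPKM against 0 and 0.147, and Csf1r (CD115) at 20.1 and 44.6 against 9.52 and 4.77.

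**Figure D3:**
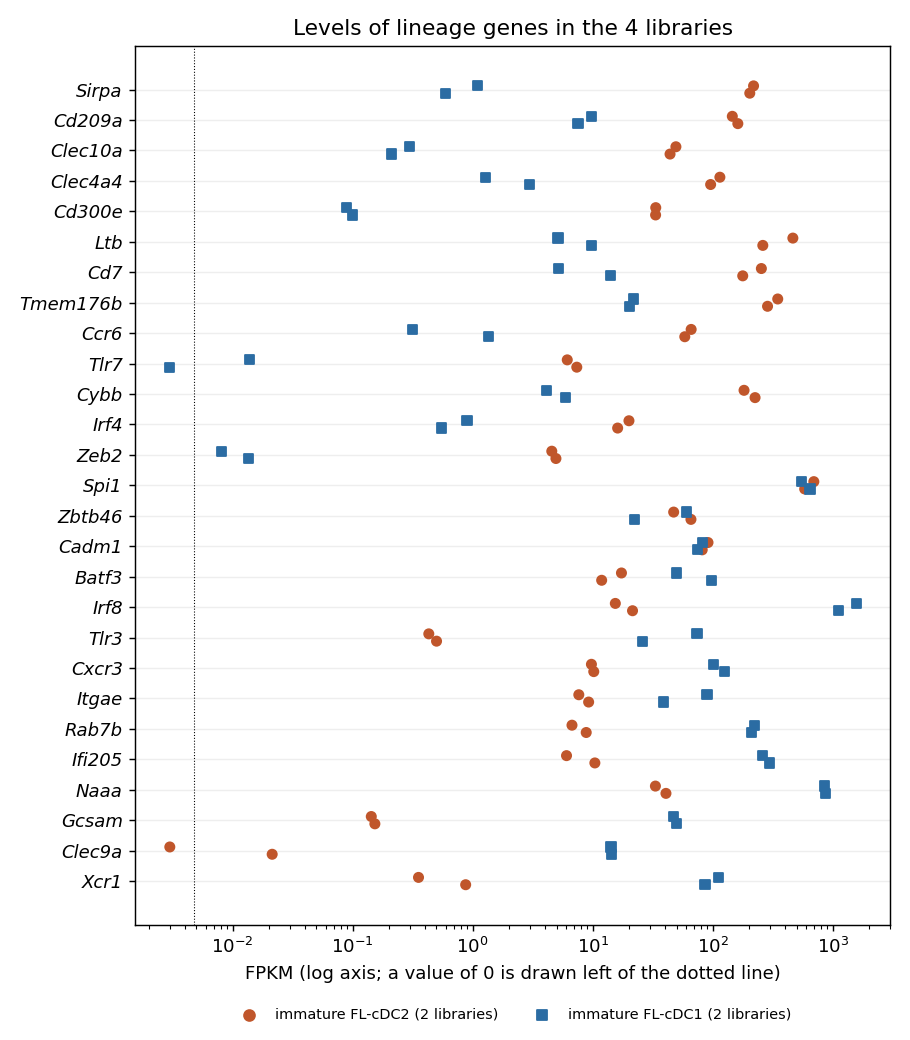
FPKM (horizontal log axis) of 27 genes in each of the 4 libraries, circles for immature FL-cDC2s and squares for immature FL-cDC1s. Genes from Sirpa to Zeb2 lie to the right in both cDC2 libraries, Spi1, Zbtb46 and Cadm1 overlap, and genes from Batf3 to Xcr1 lie to the right in both cDC1 libraries.

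IRF8 and IRF4 bind DNA as repeats of a GAAA core or beside an ETS factor such as PU.1, so the promoter windows of the lineage genes (250 bases before to 50 after the start, RefSeq, GRCm38.p6) were searched on both strands for an IRF repeat (GAAA, any 2 bases, GAAA), an ETS-IRF composite (GGAA, any 2 bases, GAAA) and the AP-1 site bound by BATF3 with JUN (TGANTCA). The IRF repeat was found in 3.44% of 32851 windows, the composite in 2.72% and the AP-1 site in 7.81%, and 79 windows held both IRF motifs. Of 18 cDC1 marker genes higher in cDC1s that had a window, Tlr11 and Ifi205 held the repeat and Gpr33 the composite. Of 10 cDC2 marker genes higher in cDC2s that had a window, Cd209a and Clec7a held the composite and none the repeat. The windows of Xcr1 and Clec9a held none of these letters. Windows of 2 genes higher in cDC1s and 2 higher in cDC2s are printed 5′ to 3′ to show where the matches lie, in capitals; a match is a stretch of letters and no measured binding.
Tlr11 (chr14:50357664-50357963, plus strand): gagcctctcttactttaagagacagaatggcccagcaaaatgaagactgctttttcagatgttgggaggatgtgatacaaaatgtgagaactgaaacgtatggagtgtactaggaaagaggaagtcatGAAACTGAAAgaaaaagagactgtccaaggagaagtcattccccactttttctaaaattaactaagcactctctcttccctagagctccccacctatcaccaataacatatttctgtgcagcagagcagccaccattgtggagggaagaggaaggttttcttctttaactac
Ifi205 (chr1:174031706-174032005, minus strand): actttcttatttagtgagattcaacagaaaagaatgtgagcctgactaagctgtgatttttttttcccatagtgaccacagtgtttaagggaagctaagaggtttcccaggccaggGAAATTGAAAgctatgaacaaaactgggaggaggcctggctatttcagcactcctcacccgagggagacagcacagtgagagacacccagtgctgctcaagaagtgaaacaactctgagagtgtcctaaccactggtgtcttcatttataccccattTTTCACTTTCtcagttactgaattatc
Cd209a (chr8:3748935-3749234, minus strand): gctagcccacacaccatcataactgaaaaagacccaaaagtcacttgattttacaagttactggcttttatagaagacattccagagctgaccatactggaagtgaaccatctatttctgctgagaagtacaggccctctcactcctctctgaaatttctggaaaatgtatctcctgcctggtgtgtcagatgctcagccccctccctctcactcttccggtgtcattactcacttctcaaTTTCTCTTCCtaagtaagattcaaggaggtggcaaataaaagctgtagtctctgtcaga
Cybb (chrX:9469275-9469574, minus strand): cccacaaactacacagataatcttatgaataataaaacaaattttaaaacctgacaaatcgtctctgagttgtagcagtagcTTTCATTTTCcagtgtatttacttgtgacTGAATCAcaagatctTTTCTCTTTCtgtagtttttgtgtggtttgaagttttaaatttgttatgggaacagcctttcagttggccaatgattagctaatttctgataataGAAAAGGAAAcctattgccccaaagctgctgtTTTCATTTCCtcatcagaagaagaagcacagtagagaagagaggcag
In Tlr11 the repeat lay 122 to 113 bases before the start, and in Ifi205 1 repeat lay 134 to 125 bases before it and another 24 to 33 bases after it. The composite of Cd209a ran from 9 bases before the start to its first base. Cybb held 3 repeats, 1 AP-1 site and 1 composite in its window. Over all genes higher in cDC2s, 5.53% of windows held the repeat and 3.48% the composite, and over those higher in cDC1s 4.22% and 2.17%, beside 3.23% and 2.42% over all genes tested. The AP-1 site was in 8.11% of windows of genes higher in cDC2s and 7.36% of those higher in cDC1s, beside 4.97% over all genes tested.

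Of 28 cDC1 markers tested, 23 were higher in cDC1s, none in cDC2s and 5 did not pass, with a median log2 fold change of -4.25 beside 0.07 over all genes. The most abundant was Naaa, a lysosomal amidase of lipid amides, at 852 and 866 FPKM in cDC1s and 33.3 and 40.8 in cDC2s. Rab7b, a small GTPase of late endosomes, was at 223 and 212 against 6.73 and 8.84, and Ifi205, an interferon-inducible gene of the HIN-200 family, at 262 and 296 against 6.06 and 10.4. Gcsam, a signaling adaptor first known from germinal center B cells, was all but restricted to cDC1s among these 4 libraries, at 47.1 and 50.03 against 0.143 and 0.153 FPKM, a 432-fold difference. Itgae, the CD103 chain that binds E-cadherin, and the scavenger receptor Cd36 were 10.0-fold and 22.3-fold higher. The markers that did not pass were Cadm1 (91.5 and 81.8 FPKM in cDC2s, 82.7 and 74.9 in cDC1s), Wdfy4, Btla, Ly75 and Cd8a, and Cd8a was under 0.5 FPKM in all 4 libraries. The count was 23 without either cDC1 library, 26 with length offsets and 18 without cDC2 replicate 2.

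Of 22 cDC2 markers tested, 15 were higher in cDC2s, 3 in cDC1s and 4 did not pass, with a median log2 fold change of 3.67. Clec10a, a galactose-binding lectin, was at 49.4 and 44.2 FPKM in cDC2s and 0.298 and 0.212 in cDC1s, a 132-fold difference (log2 7.05 ± 0.46 SE, adjusted p = 0.000519). Ltb, which encodes lymphotoxin beta, was at 466 and 262 against 5.14 and 9.84, the surface protein Cd7 at 255 and 178 against 5.16 and 14.2, and the membrane protein Tmem176b at 349 and 287 against 22 and 20.2. Itgam, the CD11b chain often used to gate cDC2s, differed by less, at 121 and 115 against 42.0 and 30.6 FPKM. Cd4 was low throughout (2.43 and 2.21 against 0.0536 and 0.0193). The 3 list members that went against their name were the chemokine receptor Ccr2, the decoy interleukin-1 receptor Il1r2 at 377 and 492 in cDC1s against 175 and 221, and Ifitm3, a short transcript. Ccr2 and Il1r2 lost their calls without cDC2 replicate 1, without cDC2 replicate 2 and under scaling by library size alone, which left 1 such member.

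Among transcription factors the IRF genes differed most plainly. Irf8 was at 1570 and 1119 FPKM in cDC1s and 15.5 and 21.5 in cDC2s, 89.0-fold higher (log2 -6.48 ± 0.45 SE, adjusted p = 0.000519), and Irf4 at 20.1 and 16.2 in cDC2s against 0.899 and 0.549, 18.6-fold higher (log2 4.22 ± 0.42 SE, adjusted p = 0.00126). Batf3, the AP-1 partner of IRF8 in cDC1s, was at 49.7 and 97.1 against 17.4 and 11.9, so it was present in both subsets with a 6.96-fold difference. Id2, an inhibitor of E proteins, was at 1512 and 2209 in cDC1s against 497 and 351 in cDC2s. Zeb2, a repressor known to oppose the cDC1 fate, was at 4.57 and 4.95 FPKM in cDC2s and at 15 reads in all over both cDC1 libraries. The E protein Tcf4, the target of ID2 family inhibition, was 3.62-fold higher in cDC2s.

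Of the 36 transcription factors tested, 9 were higher in cDC2s and 4 in cDC1s, with a median log2 fold change of 0.63. The list's median transcript length was 4018 bases, beside 2809 over all genes tested. With length offsets its median log2 fold change was 0.26, and 9 were higher in cDC2s and 6 in cDC1s. The NF-κB genes Nfkb1 (127 and 119 FPKM against 30.2 and 30.7), Relb and Rel were all higher in cDC2s. The pan-cDC factor Zbtb46 (47.3 and 65.9 FPKM in cDC2s, 60.1 and 22.2 in cDC1s) and the myeloid factor Spi1 (697 and 584, 551 and 648) overlapped between the subsets and did not pass. Klf4, Notch2, Bcl6 and Nfil3, which have known roles in making cDC subsets, did not pass either. Without cDC2 replicate 2 the list gave 3 in each direction and without cDC1 replicate 1 it gave 17 and 4, while Irf8, Irf4 and Zeb2 passed in every setting.

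Of 25 Toll-like receptors and adaptors tested, 8 were higher in cDC2s and 4 in cDC1s. Tlr3, the endosomal sensor of double-stranded RNA, was at 74.0 and 26.2 FPKM in cDC1s and 0.432 and 0.501 in cDC2s. Tlr11 and Tlr12, which bind protozoan profilin in mice, were also higher in cDC1s (22.2 and 10.2 against 3.53 and 3.82, and 18.7 and 10.1 against 1.55 and 1.19). Tlr7, the sensor of single-stranded RNA, was at 6.15 and 7.38 FPKM in cDC2s with 4 reads over both cDC1 libraries. The flagellin receptor Tlr5 and the RNA sensor Tlr8 had no read in cDC1s, so their excess in cDC2s was at least 60.3-fold and at least 53.7-fold, on the floor of 3 reads per library. Tlr1, Tlr2 and the lipopolysaccharide coreceptor Cd14 (34.1 and 70.6 against 4.05 and 3.88 FPKM) were higher in cDC2s as well. Reads of Tlr1 may be shared with its close copy Tlr6.

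Of 25 cytosolic sensors and inflammasome genes, 4 were higher in cDC2s and 2 in cDC1s. Ddx58, which encodes the RNA helicase RIG-I, was at 9.54 and 8.61 FPKM in cDC2s and 0.464 and 0.232 in cDC1s, and the DNA sensor Aim2 at 24.1 and 21.0 against 2.88 and 2.42. The other direction held the HIN-200 family members Ifi205 and Mnda, the latter at 124 and 160 FPKM in cDC1s against 5.03 and 8.29.

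The C-type lectins leaned to cDC2s, with 14 of 29 tested members higher in cDC2s, 4 in cDC1s and a median log2 fold change of 1.98. The gene cluster on chromosome 6 led: Clec4a3 was at 81.2 and 60.2 FPKM against 0.0636 and 0.411, Clec4a4 at 115 and 96.2 against 1.27 and 2.99, and Clec4e, the Mincle receptor of mycobacterial glycolipid, at 29.4 and 40.1 against 0.162 and 0.152. Clec4n, which encodes Dectin-2, was at 28.9 and 39.7 against 0.155 and 0.431 FPKM, and Clec7a, which encodes the beta-glucan receptor Dectin-1, at 8.94 and 20.9 against 0.593 and 0.342. Clec4d and Cd209c had no read in cDC1s, which puts their excess in cDC2s at no less than 66.0-fold and 128-fold. Of the 4 lectins higher in cDC1s, Clec9a alone was above 10 FPKM. The Clec4a and Cd209 genes are close copies, and reads may be shared among them.

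A list of siglec, CD300, PIR, LILR and related receptors leaned to cDC2s too. Of its 31 tested genes, 12 were higher in cDC2s and 1, Klrb1b, in cDC1s. Cd300e was at 33.6 and 33.5 FPKM in cDC2s and 0.0888 and 0.0993 in cDC1s. The sialic acid receptors Cd33 (17.9 and 15.9 against 0.424 and 0.426) and Siglecg (52.9 and 55.3 against 4.37 and 4.86) separated the subsets with little spread. Klrb1b was at 90.4 and 90.7 in cDC1s against 11.6 and 11.9.

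Of 17 Fc and complement genes, 9 were higher in cDC2s and 1 in cDC1s. Fcgrt, the neonatal Fc receptor that carries IgG through endosomes, was the exception at 384 and 365 FPKM in cDC1s and 46.6 and 54.6 in cDC2s. The complement genes C3 (5.29 and 5.74 against 0.0276 and 0 FPKM) and Cfb (14.3 and 29.8 against 0.239 and 0.205) were higher in cDC2s. C1qa, C1qb and C1qc passed too, but the cDC2 libraries differed widely, with C1qb at 1.12 FPKM in replicate 1 and 16.6 in replicate 2. Without cDC2 replicate 2, 4 genes of the list were higher in cDC2s.

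Efferocytosis and scavenger receptors were divided, with 6 of 25 higher in cDC2s and 5 in cDC1s. The cDC1 side held Cd36, Clec9a and the phosphatidylserine receptor Timd4 (10.1 and 6.74 against 0.484 and 0.597 FPKM). The cDC2 side held Msr1, Marco and Stab1, all under 10 FPKM and all higher in replicate 2 than in replicate 1, and 2 members were left there without replicate 2.

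Among 18 chemokine and lipid receptors, 4 were higher in cDC2s and 5 in cDC1s. Ccr6, the receptor of CCL20, was at 66.2 and 58.6 FPKM in cDC2s against 0.314 and 1.36 in cDC1s. Cxcr3, the receptor of interferon-induced chemokines, was at 101 and 125 in cDC1s against 9.77 and 10.2 in cDC2s, and the nucleotide sugar receptor P2ry14 at 80.3 and 70.2 against 4.30 and 5.53. Ccr2 was 2.81-fold higher in cDC1s, and Ccr7, which guides mature DCs to lymph nodes, was at 18.7 and 32.9 FPKM in cDC2s against 1.11 and 0.240.

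For secreted factors, 6 of 25 were higher in each direction. The chemokine Ccl5 was at 68.6 and 38.8 FPKM in cDC2s against 0.751 and 0.738, and Cxcl2 had no read in cDC1s. Tgfb1 was at 141 and 89.9 in cDC1s against 17.8 and 7.59 in cDC2s, a 12.2-fold difference (log2 -3.61 ± 0.49 SE, adjusted p = 0.00426), and Cxcl16 3.76-fold higher there. The counts were 10 and 4 without cDC1 replicate 2, 8 and 2 without cDC2 replicate 1, and 6 and 3 without cDC2 replicate 2.

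Of 32 cytokine receptors, 11 were higher in cDC2s and 3 in cDC1s. Il21r was at 131 and 119 FPKM in cDC2s against 12.9 and 10.6, Il7r at 8.28 and 9.46 against 0.180 and 0.151, and the common gamma chain Il2rg, which both use, at 520 and 669 against 94.6 and 126. The 3 higher in cDC1s were receptor chains of GM-CSF and interleukin-3: Csf2ra (161 and 173 against 50.4 and 66.8), Csf2rb2 and Il3ra. None of these 3 passed without cDC2 replicate 2, and without cDC1 replicate 1 the list gave 18 and 5.

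Antigen presentation genes were read as a class II list and a class I list. Of 15 MHC class II genes, which the gate touches, H2-Eb2 was higher in cDC2s, and Cd74, H2-DMa and H2-DMb1 were higher in cDC1s. Higher in cDC2s and in cDC1s, these counts were 0 and 4 by DESeq2 and 4 and 3 with length offsets. They were 2 and 2 by limma and under scaling by library size alone, so their lean depended on the setting. By flow cytometry of protein, the paper describes CD83-negative cells of the cDC1 gate as MHC class II-low, while the values here are of RNA. Cd74 was at 51363 and 62408 FPKM in cDC1s and 23255 and 22487 in cDC2s, whereas H2-Ab1, H2-Aa, H2-Eb1 and the transactivator Ciita did not pass. Of 35 genes of MHC class I presentation and cross-presentation, 8 were higher in cDC1s and 1 in cDC2s, with a median log2 fold change of -0.72. In all, 25.7% of this list and 26.7% of the class II list were called, beside 15.4% over all genes tested. The 8 included the immunoproteasome subunits Psmb8 (1168 and 1930 against 630 and 541 FPKM), Psmb9 and Psmb10 and the proteasome activators Psme1 and Psme2, each by 2.76- to 4.41-fold. These are short transcripts, with the list's median at 1842 bases beside 2809 over all genes tested. Scaling by library size alone and both limma fits left 5 of the 35 higher in cDC1s. With length offsets 12 of the 35 were higher in cDC1s, without cDC1 replicate 1 13 were, and without cDC2 replicate 2 only Rab7b was.

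Cybb, the catalytic subunit of the phagocyte oxidase and the single member of that list higher in cDC2s, was at 183 and 226 FPKM in cDC2s and 4.13 and 5.98 in cDC1s, 29.4-fold higher (log2 4.88 ± 0.43 SE, adjusted p = 0.000876). Its promoter window is among the 4 printed above, all of which hold matches, so its number of matches is a description only.

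Of 25 costimulatory and checkpoint genes, 7 were higher in cDC2s and 3 in cDC1s, the latter count falling to 1 without either cDC2 library. Cd274, which encodes PD-L1, was at 11.7 and 17.8 FPKM in cDC2s against 0.433 and 0.325. Tnfsf4, which encodes OX40L, had no read in cDC1s and was at least 97.9-fold higher in cDC2s, at 4.25 and 2.88 FPKM. Cd226 was at 8.58 and 5.46 in cDC1s against 0.151 and 0.555.

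Adhesion genes went both ways, with 8 of 27 higher in cDC2s and 4 in cDC1s, which became 4 and 3 without cDC2 replicate 2, 5 and 3 without cDC2 replicate 1 and 9 and 7 without cDC1 replicate 1. The cDC2 side held Itga4 and Cdh1, or E-cadherin, the latter at 47.5 and 67.1 against 3.03 and 1.79. The cDC1 side held Itgae, whose product binds E-cadherin, Itga1, Itgal and Selplg.

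Of 38 interferon-stimulated genes, 12 were higher in cDC2s and 5 in cDC1s, at a median log2 fold change of 0.01. The antiviral genes Ifit1, Ifit2, Ifit3, Oas1a, Oas2, Oasl2, Rsad2 and Rtp4 were higher in cDC2s, as in Ifit3 at 26.6 and 20.9 FPKM against 1.18 and 1.12. Ifitm1, Ifitm2 and Ifitm3, which encode small membrane proteins, were higher in cDC1s, with Ifitm1 at 1703 and 4010 against 376 and 239. Without cDC1 replicate 1 the list gave 13 and 9, and without cDC1 replicate 2 it gave 12 and 8. The Ifitm transcripts are short and close copies, and the cDC1 replicates differed for each of them in the direction of the length trend.

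Of 38 lysosomal genes, 5 were higher in each subset, and this even split was lost under scaling by library size alone (11 higher in cDC2s and 4 in cDC1s), with all 13 libraries (11 and 6) and without cDC1 replicate 2 (10 and 4). Cst3, the cathepsin inhibitor cystatin C, was at 14308 and 29331 FPKM in cDC1s and 1259 and 964 in cDC2s. Ctsd, the protease cathepsin D, went the other way at 245 and 377 FPKM in cDC2s against 15.5 and 21.5, as did the tetraspanin Cd63 (23 and 28.2 against 0.210 and 0.257). Ppt1, which removes palmitate from proteins, was at 813 and 706 in cDC1s against 145 and 174. Cst3 is a short transcript of 808 bases.

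In lipid metabolism, 8 of 38 genes were higher in cDC2s and 6 in cDC1s, the latter count being 2 without cDC2 replicate 2, 3 without cDC2 replicate 1 and 10 without cDC1 replicate 2. The eicosanoid enzymes Alox5 (7.38 and 10.9 against 0.385 and 0.237 FPKM) and Ptgs2 (4.27 and 14.4 against 0.0216 and 0.0401) were higher in cDC2s, and the prostaglandin E2 receptors parted, with Ptger4 higher in cDC2s and Ptger2 (11.5 and 14 against 0.570 and 0.715) in cDC1s. The lipid droplet protein Plin2 was at 164 and 152 in cDC1s against 23.4 and 32.0, and the sterol enzyme Dhcr7 was higher there. Of 32 genes of glycolysis and respiration, 15.6% were called, much as the 15.4% of all genes tested. Among these, 4 were higher in cDC1s, Ldha and Gapdh included, and the glucose transporter Slc2a3 was higher in cDC2s at 114 and 204 against 29.6 and 14.3. The count higher in cDC1s was 17 without cDC1 replicate 1, 12 by DESeq2 and 1 without cDC2 replicate 2.

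Of the actin and migration genes, 13 of 39 were higher in cDC1s and none in cDC2s, at a median log2 fold change of -0.51. Tmsb4x, which binds actin monomers, was at 13983 and 33912 FPKM in cDC1s against 7968 and 4799. S100a11 was at 1549 and 2781 against 273 and 116, the actin elongation factor Vasp at 215 and 180 against 50.8 and 35.0, and Was, the Wiskott-Aldrich protein, at 26.1 and 30.4 against 6.39 and 3.39. Scaling by library size alone gave 3 higher in cDC2s and 8 in cDC1s, length offsets 1 and 12, leaving out cDC2 replicate 2 none and 6, and leaving out cDC1 replicate 1 3 and 17. The list's median transcript length was 1948 bases, and the part of length in this count was not tested beyond these values. Arpc1b, an Arp2/3 subunit outside the list, was higher in cDC2s at 1361 and 1077 against 221 and 316.

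Of the proliferation genes, 2 of 40 for replication and 2 of 30 for mitosis were higher in cDC2s and none in cDC1s. These shares, 5% and 6.67%, were below the 15.4% called over all genes tested. Replication genes gave 7 and 0 under scaling by library size alone, 4 and 1 by DESeq2, 8 and 0 by limma and 8 and 4 without cDC1 replicate 1. Mitosis genes gave 6 and 0, 7 and 2, 7 to 8 and 0, and 6 and 6 in the same settings. Mki67 was at 21.4 and 24.4 FPKM in cDC2s and 2.92 and 4.05 in cDC1s, Top2a at 81.9 and 106 against 34.3 and 19.5, and the cyclin Ccnd1 at 153 and 107 against 23.1 and 32.4. Of 24 BCL2 family and death genes, 12.5% were called, also below the share over all genes. Pmaip1, which encodes the killer protein NOXA, was at 315 and 397 FPKM in cDC2s against 11.9 and 11.6. Bcl2a1b was also higher in cDC2s and Bcl2l14 in cDC1s, and Bcl2, Mcl1 and Bcl2l11 did not pass. Of 24 genes of the Notch, Wnt and TGF-beta pathways, 2 were higher in cDC2s and 5 in cDC1s (2 without either cDC2 library), among them the Notch ligand Jag2 (15.9 and 6.20 against 0.417 and 0.432) and the Wnt receptor Fzd1.

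**Figure D4:**
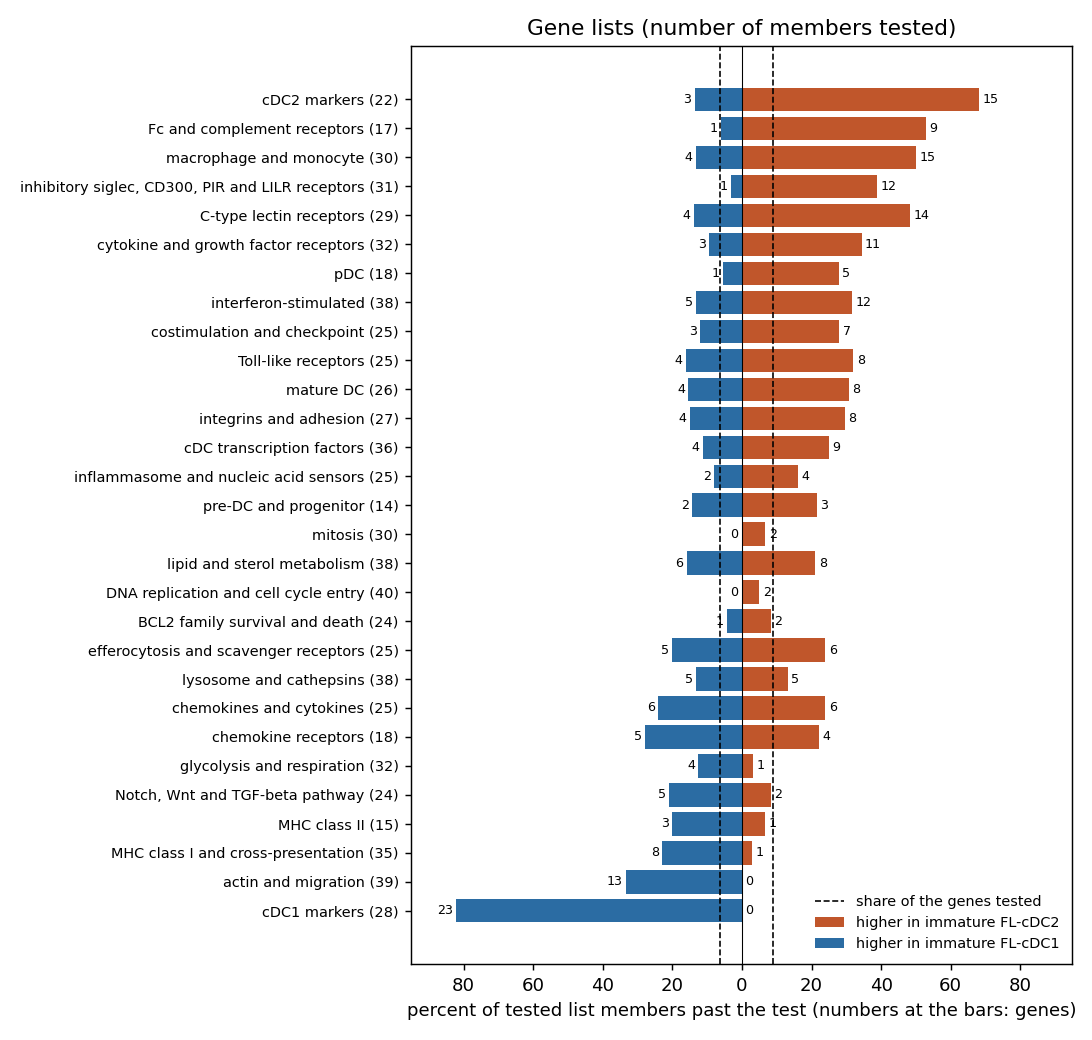
Percent of tested members past the test, to the right for higher in immature FL-cDC2s and to the left for higher in immature FL-cDC1s, for lists with at least 14 tested members; numbers at the bars are genes and dashed lines the shares over all genes tested (8.99 and 6.41). The cDC2 and cDC1 marker lists reach farthest on either side, and the 2 proliferation lists stay below the dashed lines.

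Genes of other cells were read to describe what the gates held. Of 30 macrophage and monocyte genes tested, 15 were higher in cDC2s and 4 in cDC1s. The list's summed level was 1496 and 2796 FPKM in cDC2s and 4526 and 5580 in cDC1s, and Lyz2 alone was at 680 and 1427 against 3816 and 4102. The cDC2 libraries differed for macrophage products, all in the same direction: Gpnmb was at 45.4 FPKM in replicate 1 and 150 in replicate 2, Apoe at 10.6 and 131, Mmp12 at 9.47 and 33.3. Of the 36 genes in the list, 4 were at 0 in all 4 libraries, Chil3, Ms4a3 and Ly6c1 among them. Mertk was at 0 except for 0.217 FPKM in cDC2 replicate 2. Without that replicate 10 genes were higher in cDC2s and 3 in cDC1s. The part of other cells in these values was not tested, and in bulk samples fewer cells of a type and less RNA per cell cannot be told apart.

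Of 18 plasmacytoid DC genes, 5 were higher in cDC2s, with Siglech at 13.3 and 11.3 FPKM against 1.96 and 2.39, and 1, Ly6a, in cDC1s, a count that was 5 without cDC1 replicate 1. Of the mature DC genes, 8 of 26 were higher in cDC2s and 4 in cDC1s, and 4 and 2 without cDC2 replicate 2. In the mature DC list 46.2% of members were called, beside 15.4% over all genes tested. It holds Ccr7, Ccl5 and Relb, named above. The cDC2s were sorted for high MHC class II, and the part of maturation in these values was not tested. The lists for lymphocytes (B, T and NK cells), neutrophils, mast cells, erythroid and stromal cells had between 1 and 5 tested members each. Of these lists, 7 genes were higher in cDC2s and 2 in cDC1s. Higher in cDC2s were 3 of 4 neutrophil, 2 of 4 erythroid and platelet, 1 of 4 B cell and 1 of 5 T cell genes. Higher in cDC1s were 1 of 5 T cell genes and the 1 NK cell gene tested. Over all genes tested, 15.4% were called. The B cell list summed to 52.0 and 48.0 FPKM in cDC2s against 7.23 and 16.7, and the NK cell list to 21.4 and 26.2 against 49.5 and 47.2. Mmp9 was the most abundant of the neutrophil genes called, at 5.04 and 13.6 FPKM in cDC2s and with no read in cDC1s.

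The largest fold changes with at least 10 FPKM in the higher subset were led in cDC2s by Dscam, a cell adhesion molecule of neurons (12 and 8.94 FPKM), and Mreg, or melanoregulin (30.7 and 20.3), neither with a read in cDC1s. Their excess was at least 1332-fold for Dscam and 1082-fold for Mreg, on the floor of 3 reads per library. Sirpb1a (93.5 and 72.5 FPKM against 0 and 0.0605), Sirpb1b and Gm9733 lie in a cluster of near-identical genes on chromosome 3, so their separate levels are uncertain. Lipoprotein lipase Lpl, the kinase Fam20c, Mmp12, Gpnmb and the lipase Pla2g7 were all higher in replicate 2 of the cDC2s than in replicate 1, as in Pla2g7 at 23 and 62.8 FPKM. All these were higher still in the cDC2-gated non-DCs, with Gpnmb at 4380 and 5320 FPKM and Pla2g7 at 2360 and 2723. Among the other largest cDC2 folds, Dscam, Mreg, Sirpb1a, Cd300e and Gm9733 were lower in non-DCs and the rest were higher. H2-M2, a class Ib MHC gene, was at 35.1 and 44.3 against 0.0543 and 0.312.

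In cDC1s the largest folds belonged to Gm5424 and Pnp2, which had no read in cDC2s. Both are close copies of another gene, and the copy of Gm5424, Ass1, went the other way: Ass1 was at 8.49 and 5.43 FPKM in cDC2s and 0.174 and 0.375 in cDC1s, and both genes together at 8.49 and 5.43 against 23.1 and 21.6. Pnp2 and its copy Pnp together were at 57.8 and 52.3 FPKM in cDC2s against 91.3 and 106 in cDC1s, so neither fold stands on its own. The retrotransposon-derived genes Cxx1a, Cxx1b and Cxx1c followed, with Cxx1b at 358 and 401 against 2.86 and 1.27, and they too are near-identical. Dapk2, a kinase of cell death and autophagy, was at 149 and 135 FPKM against 0.50 and 0.595, a 348-fold difference (log2 -8.44 ± 0.44 SE, adjusted p = 0.000454). Ctla2b (78.6 and 133 against 0 and 0.372), Cited1, P3h2, Agpat3, Phlda1 and Cystm1 completed these 15 genes together with Clec9a, Gcsam and Xcr1.

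By the difference in level, cDC2s were led by Arpc1b, Il2rg, Serp1, Rogdi, Cd72, Ltb, Pmaip1, Cyp4f16, Tmem176b and Ctsd. Cd72, a lectin-like receptor known from B cells, was at 390 and 397 FPKM against 15.6 and 32.4, and Cyp4f16, a cytochrome of fatty acid hydroxylation, at 325 and 387 against 30.7 and 40.3. The cDC1 side was led by Cd74, Cst3, Tmsb4x, Lyz2, Pfn1, Ifitm1, Lgals3, Cfl1, Ifitm2 and S100a11. All 10 are transcripts of 511 to 1419 bases and lie in the shortest length bin, where the median gene leaned to cDC1s. Lgals3, which encodes galectin-3, was at 2474 and 3577 against 642 and 644.

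The CD83-positive mature stage of both lineages, with 2 libraries for cDC2s and 1 for cDC1s, was not part of the fit and was read as a description. Of the 796 genes higher in immature cDC1s, 669 (84.0%) were also lower in both mature cDC2 libraries than in the mature cDC1 library, a pattern that 41.8% of all genes tested showed. Of the 1116 genes higher in immature cDC2s, 602 (53.9%) were above the mature cDC1 library in both mature cDC2 libraries, beside 40.1% of all genes. Xcr1 was at 44.6 FPKM in mature cDC1s and 0.214 and 0.236 in mature cDC2s, and Naaa at 213 against 2.07 and 2.65. In contrast, Irf8 was at 412 and 450 in mature cDC2s against 793 in mature cDC1s, and Irf4 at 12 and 12.6 against 9.81. Of cDC2 genes, Clec10a, Cd300e and Clec4e were under 2 FPKM in all 3 mature libraries, whereas Mreg was at 317 and 246 in mature cDC2s and 374 in mature cDC1s.

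**Figure D5:**
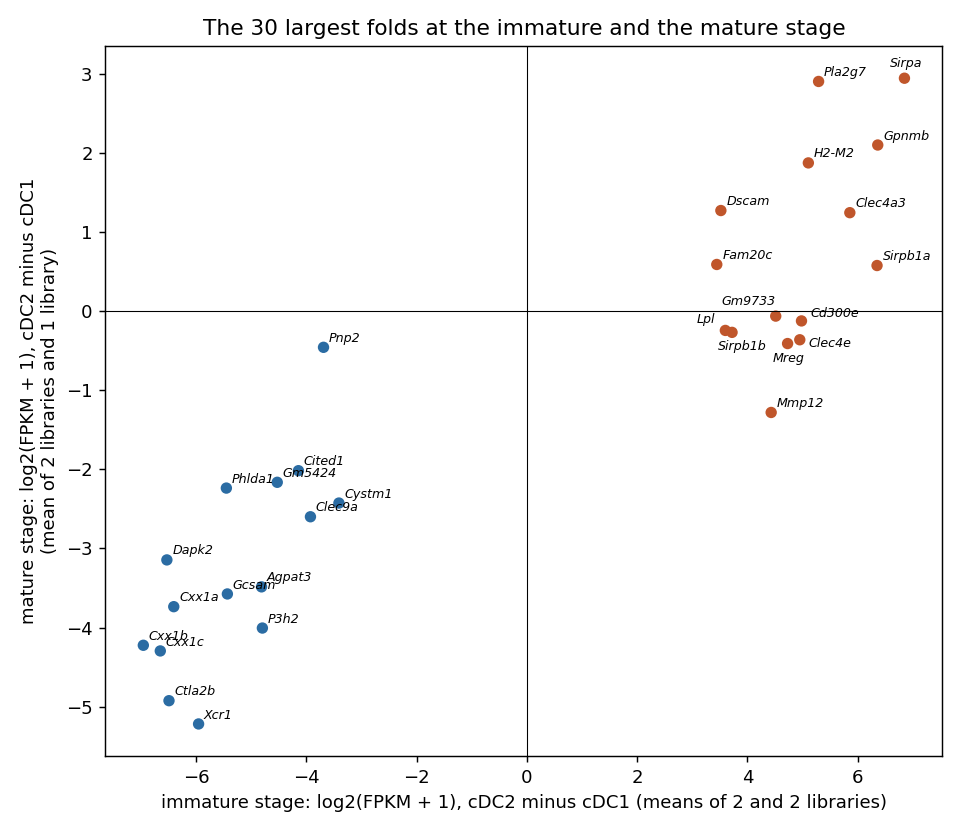
Difference of log2(FPKM + 1), cDC2 minus cDC1, at the immature stage (horizontal axis, means of 2 and 2 libraries) and at the mature stage (vertical axis, mean of 2 libraries and 1 library) for the 15 largest folds in each direction, blue for higher in immature cDC1s and orange for higher in immature cDC2s. All 15 cDC1 genes stay below 0 at the mature stage, while the cDC2 genes scatter around 0, with Mmp12 below and Sirpa and Pla2g7 near 3.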

How the data were processed

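RNA of sorted cells was made into libraries with a low-input PCR-amplified kit that carries no molecular identifiers, and floors therefore account for counting error alone. The deposited tables, 6 for the 7 subsets of the series, hold whole-number read counts and FPKM values per gene made by the authors. Per the labels' processing notes the tools were STAR 2.6.0c, StringTie 1.3.4d, HTSeq, bcl2fastq 2.20.0 and Trimmomatic with build mm10, while the methods text names another aligner, and strand settings were not given in the sources used here.

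Counts were filtered by expression (filterByExpr), scaled by TMM factors (0.805 to 1.18) and tested with edgeR 4.0.16 (R 4.3.3) in a quasi-likelihood fit of the 4 libraries without a replicate term, with Benjamini-Hochberg adjustment over all 12420 genes and a threshold of 0.05. Levels are the deposited FPKM values. SE is the standard error of the log2 fold change. A fold against a subset with no read used a floor of 3 reads per library. On simulated data of 11716 genes, 2, 26, 47 and 50 of 50 genes changed by 2-, 4-, 8- and 16-fold were recovered, with 4 false calls. The simulation gave all genes the same spread in both subsets and no length trend. Its false calls therefore do not measure the error of the real comparison. Alternatives used DESeq2 1.42.0, limma 3.58.1 on log2(FPKM + 1) and log2(FPKM + 0.1), other scalings, filters and blocks, all 13 libraries, and each library left out. Length offsets and the crossed pairing were added after seeing the data.

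Genes named are the 4 markers, the sorting genes, members of 36 lists, the 15 largest folds past the test in each direction with at least 10 FPKM, and the 10 largest differences in level. Members and lists were chosen with earlier results of these data known. Gm5424's and Pnp2's copies were named after their values were seen. Of 24532 genes, 24462 matched RefSeq GRCm38.p6 by gene ID. Some genes of the lists are counted but not reported by name here.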

Additional observations from a re-analysis of the deposited data

Results flagged for a closer look

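Of the genes named in the report and past the test at the immature stage, 12 turned by at least 2-fold at the mature stage, which had 2 cDC2 libraries and 1 cDC1 library. The values are the mature differences of log2(FPKM + 1), cDC2 minus cDC1, and the difference between stages was not tested. Batf3, higher in immature cDC1s, was higher in mature cDC2s by 1.22, at 59.4 and 88.1 FPKM against 31.1. The other 11 were higher in immature cDC2s and lower in both mature cDC2 libraries than in the mature cDC1 library. Without a condition on size, 28.9% of all 1116 genes higher in immature cDC2s were lower there in this way, beside 41.8% of all genes tested. Of the 796 genes higher in immature cDC1s, 6.78% turned, beside 40.1% of all genes tested that were higher in both mature cDC2 libraries. Both shares of turned genes were below those over all genes, and the share was larger on the cDC2 side. Itgam, the CD11b chain, differed by -2.96, with 2.46 and 0.916 FPKM in mature cDC2s against 20.0 in mature cDC1s. Cd7 differed by -2.06, Cd209a by -1.83 and the colony-stimulating factor receptor gene Csf1r by -1.65. The adhesion gene Cdh1 differed by -1.40. Tnfsf4, with no read in immature cDC1s, was at 3.51 and 4.81 FPKM in mature cDC2s against 18.7 in mature cDC1s, a difference of -1.94. Top2a differed by -1.83 and Slc2a3 by -1.71. For Mmp12 (-1.28), C1qb (-1.14) and Siglech (-1.03), all mature levels were under 3 FPKM.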

How the results depend on the processing

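No gene called in the comparison had the opposite sign in any of the 16 alternatives run, and 121 of the 168 named genes that passed kept their call in all that tested them. Among the 16, an added 2-fold condition repeats the 1912 calls by construction, since the smallest called fold was 2.18. A gene absent from a setting was not counted as lost. Limma and the filter on mean FPKM held 187 of the 192 named genes tested. Higher in cDC2s and in cDC1s, DESeq2 called 1644 and 1673 genes (3317 in all), the fit of all 13 libraries 1704 and 1330 (3034), library size alone 1870 and 462, limma with a pseudocount of 0.1 1685 and 458 and with 1 1786 and 474, and length offsets 1243 and 1197, of which 1622 were shared with the 1912. Leaving out 1 library gave 879 to 4479 calls, 547 to 2130 higher in cDC2s and 332 to 2349 in cDC1s: 879 without cDC2 replicate 2, 1202 without cDC2 replicate 1, 2160 without cDC1 replicate 2 and 4479 without cDC1 replicate 1, where the lone library is assumed to vary like the other subset. Of the named genes, 39 lost their call without cDC2 replicate 2. The cause of these moves was not tested.

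Whether replicate numbers pair the libraries could not be told. Deviations of same-numbered libraries correlated at -0.34 over 12420 genes. With 2 libraries a subset the 2 pairs mirror each other, and a trend between the libraries of a single subset can set this value. A replicate block gave 1739 calls, 974 higher in cDC2s and 765 in cDC1s. The crossed pairing, like the length offsets chosen after seeing the data, gave 3578, 1900 and 1678.

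With 2 libraries a subset, 2-fold changes were rarely recovered in simulated data, so genes that did not pass are not shown to be alike.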
